A study of Mus musculus with 34 samples.

Results

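Gene expression 1 week after nicotine was compared with that after saline in the mouse neocortex and hippocampus, as 1 average effect over both regions. The comparison rests on 24 of the 34 arrays of the study, chosen by treatment alone: 12 from 6 nicotine-injected mice and 12 from 6 saline-injected mice, with 6 of each per region. By the study's design text the neocortex and the hippocampus were taken from the same mice, so each treatment has 6 animals and not 12. The mice were males that received intraperitoneal injections at postnatal day 23 and were killed at postnatal day 30. Nicotine was given as 3 injections of 10 mg/kg at 2 h intervals, and control mice received saline on the same schedule. The other 10 arrays are from mice given kainate, a glutamate receptor agonist that provokes seizures, as 3 injections of 15 mg/kg at the same ages, and are used below only beside the nicotine values. The labels name no mutation or transgene in any group, the strain is not given in the sources used here, and the labels do not say which hippocampal array belongs with which neocortical one.

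Nicotine opens nicotinic acetylcholine receptors, ion channels assembled from subunits that differ between brain and muscle. In the neocortex and hippocampus these receptors lie on interneurons, on pyramidal cells and on incoming terminals, where they raise transmitter release. Acute nicotine also activates the hypothalamic and pituitary axis that releases glucocorticoid hormone, and high doses can provoke seizures.

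Each array gives a signal for 12488 probe sets, short sets of oligonucleotides designed to report a transcript, of which some match several genes, in the linear units of the MAS5 software. The 2% trimmed mean of the 34 arrays ran from 999.2 to 999.8, which shows that they were scaled alike, and all changes are relative to that level. Array medians without control probe sets were 395.2, 396.6 and 434.6 (lowest, median and highest) in the nicotine hippocampus, against 381.1, 387.1 and 391.2 in the saline hippocampus. All 6 nicotine arrays there lay above all 6 saline arrays (difference of the means 18.5, exact two-sided permutation p = 0.00216, Benjamini-Hochberg adjusted p = 0.0260 over 12 tests of array measures). In the neocortex the medians were 382.4, 403.3 and 417.8 with nicotine, against 376.0, 389.4 and 422.1 with saline, and the groups overlapped (difference 5.80, exact permutation p = 0.558). The log2 ratio of the 3′ to the 5′ probe set of beta-actin, a measure of RNA integrity, averaged 0.36 ± 0.17 in the nicotine hippocampus and 0.54 ± 0.086 in the saline hippocampus (SD, n = 6 each; exact permutation p = 0.0455, adjusted p = 0.208). The signal of the 5′ probe set of the 18S ribosomal RNA control averaged 443 ± 204 in the nicotine hippocampus and 215 ± 143 in the saline hippocampus (SD). The exact permutation p was 0.0519 (adjusted p = 0.208). In the neocortex that signal averaged 372 ± 125 with nicotine and 301 ± 130 with saline (exact permutation p = 0.361). The part of these array measures in the gene results was not tested beyond the other scalings given with them.

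**Figure D1:**
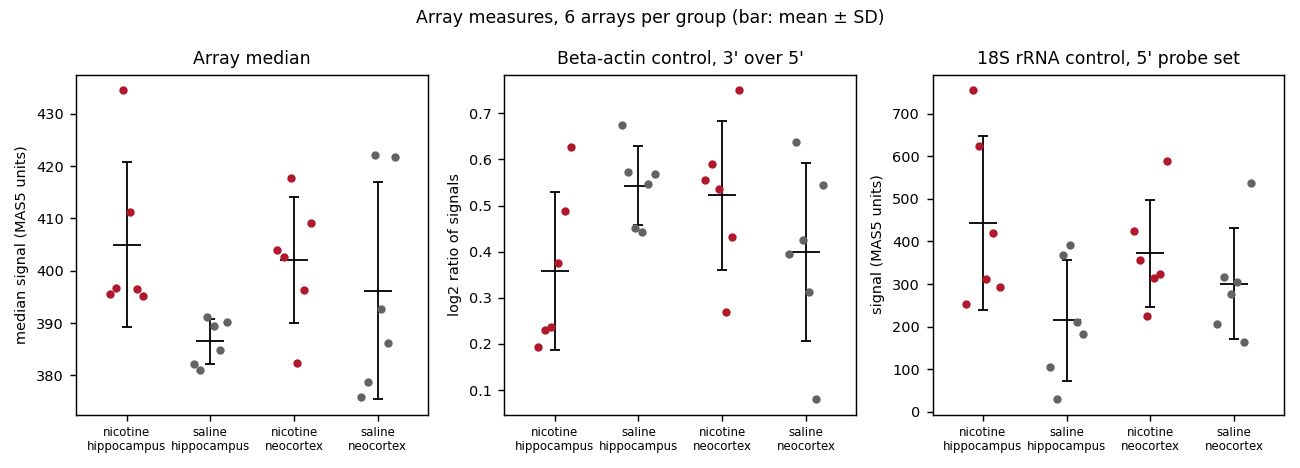
Array measures of the 24 arrays: array median signal without control probe sets (MAS5 units), log2 ratio of the 3′ to the 5′ beta-actin control signal, and signal of the ribosomal RNA control, with 1 point per array and bars for the mean ± SD of 6 arrays. Every nicotine hippocampus median lies above every saline hippocampus median, and the neocortex groups overlap.

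Of 8695 tested probe sets, those of 6421 named genes among them, 0 passed an adjusted p of 0.05 for the average effect of nicotine (0% called; limma, Benjamini-Hochberg; smallest adjusted p = 0.102). Without nicotine neocortex array 6 there were 13 (8 higher and 5 lower), without nicotine hippocampus array 6 there were 9 (4 higher and 5 lower), and without any other single array 0. This fit took the arrays as independent although each mouse gave 2, so its p-values can be too small. With same-numbered arrays of a treatment taken as 1 mouse, a pairing the labels do not state, there were 0 calls with the mouse as a random block (correlation 0.013, smallest adjusted p = 0.112, 1070 probe sets at an unadjusted p under 0.05). There were also 0 calls with its regions averaged first, 6 mice against 6 (smallest adjusted p = 0.0715, 1025 at an unadjusted p under 0.05). With the replicate number across treatments as a block there were 12 calls. With the number within a region as a block, a fit added after seeing the data, there were 42. At an unadjusted p under 0.05 there were 1090 probe sets (12.5%), of which 536 were higher with nicotine (6.16% of all tested) and 554 were lower (6.37%). The share of higher ones among them was 49.2% on the authors' scale, 26.0% after centring each array on its median (303 higher, 861 lower) and 46.8% after quantile normalization (472 higher, 537 lower). The estimates were small: 91 lay past a 1.5-fold change in either direction, and 0 past a 2-fold change. The median standard error was 0.11 on the log2 scale. The 95% interval lay within a 1.5-fold change in both directions for 80.1% of probe sets and within a 2-fold change for 97.3%.

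**Figure D2:**
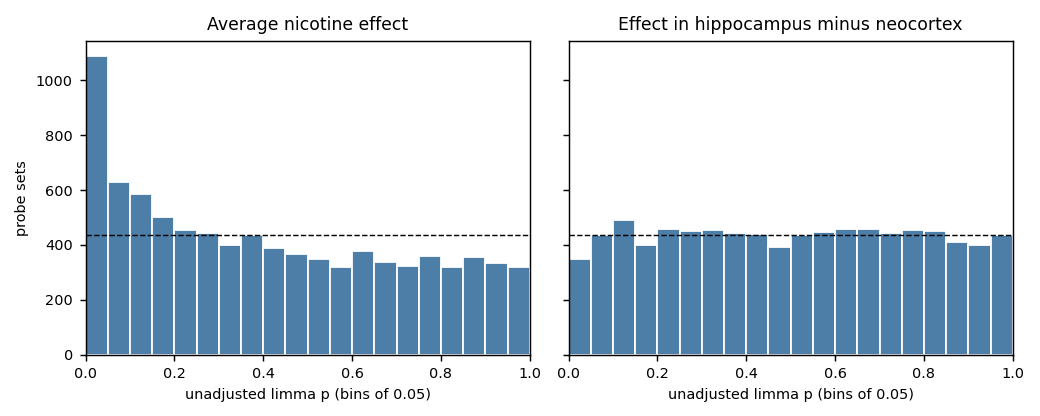
Unadjusted limma p-values of the 8695 tested probe sets in bins of 0.05, for the average effect of nicotine (left) and for the difference of the effect between hippocampus and neocortex (right); the dashed line is an even spread over the bins. The lowest bin holds 1090 probe sets on the left and 349 on the right.

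The 6 genes of lowest p among those higher with nicotine were Nudt19, Fkbp5, Rbbp9, Stat5a, Uri1 and Vamp4, given here as values because none passed the adjusted threshold (adjusted p between 0.139 and 0.155). Nudt19, a hydrolase of coenzyme A in peroxisomes, had signals of 1738, 1934 and 2422 (lowest, median and highest of 6 arrays) in the nicotine hippocampus, against 1547, 1752 and 1907 in the saline hippocampus. In the neocortex its signals were 1886, 2425 and 2707 with nicotine, against 1544, 1652 and 1998 with saline. The groups overlapped in both regions, with 4 hippocampal and 5 neocortical nicotine arrays above every saline array of their region, and the average log2 fold change was 0.31 (95% interval 0.17 to 0.45). By region it was 0.16 in the hippocampus and 0.46 in the neocortex (difference between regions, limma adjusted p = 0.991).

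Fkbp5 encodes a co-chaperone of the glucocorticoid receptor and is itself a target of that receptor. Its signals were 2861, 3217 and 3639 in the nicotine hippocampus, against 2046, 2521 and 3041 in the saline hippocampus. They were 1626, 2157 and 2384 in the nicotine neocortex, against 1397, 1651 and 1835 in the saline neocortex. In each region 4 of 6 nicotine arrays lay above every saline array, and the log2 fold change was 0.34 in the hippocampus and 0.31 in the neocortex (average 0.33, 95% interval 0.18 to 0.47, adjusted p = 0.140).

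Vamp4, a SNARE protein of endosomal membranes, had signals of 1002, 1789 and 2496 in the nicotine neocortex, against 785, 991 and 1472 in the saline neocortex, and an average log2 fold change of 0.57 (95% interval 0.29 to 0.85). Uri1, a chaperone-like partner of an RNA polymerase subunit, had 750.2, 857 and 896 in the nicotine hippocampus, against 414, 631 and 772 in the saline hippocampus, with 5 of 6 nicotine arrays above every saline array and an average log2 fold change of 0.49. Stat5a, a transcription factor downstream of cytokine and prolactin receptors, had an average log2 fold change of 0.79 (95% interval 0.42 to 1.16). Rbbp9, named for binding the retinoblastoma protein, had 0.58 (95% interval 0.31 to 0.86). A second tested probe set of the same gene gave -0.66 for Rbbp9, -0.16 for Stat5a, 0.088 for Uri1 and 0.011 for Vamp4, so for these 4 genes the value belongs to 1 probe set and not to the gene as a whole. Of the 43 fits of the average effect that were run, 3 called Nudt19, 3 Vamp4, 2 Rbbp9, 2 Stat5a, 1 Fkbp5 and 1 Uri1. Without nicotine neocortex array 6 the adjusted p was 0.0318 for Fkbp5, Rbbp9 and Vamp4 and 0.0360 for Uri1.

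The 6 genes of lowest p among those lower with nicotine were Gtf2i, Yipf4, Smdt1, H3c14, Rnf14 and Nup50, none of which passed the adjusted threshold (adjusted p between 0.127 and 0.155). Gtf2i, a transcription factor of the chromosomal segment deleted in Williams syndrome in humans, had signals of 5761, 6334 and 6592 in the nicotine hippocampus, against 6418, 7060.1 and 7482 in the saline hippocampus. In the neocortex it had 4771, 5292 and 5759 with nicotine, against 5913, 6310.4 and 7362 with saline, and there the groups did not overlap. Its average log2 fold change was -0.24 (95% interval -0.34 to -0.14), and its second probe set gave -0.051.

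Yipf4, a membrane protein of the Golgi, had 1798, 2131 and 2468 in the nicotine neocortex, against 3022, 3092 and 3655 in the saline neocortex, also without overlap. In the hippocampus its signals were 2217, 2296 and 3326 with nicotine, against 2332, 2859 and 3779 with saline, which overlapped, and the average log2 fold change was -0.41 (95% interval -0.58 to -0.23). Smdt1, a regulatory subunit of the mitochondrial calcium uniporter, had an average log2 fold change of -0.27 (95% interval -0.39 to -0.15). H3c14 had -0.54, from a probe set that may also report other copies of the histone H3 family, so the gene is uncertain. Rnf14, a ubiquitin ligase, had -0.19 and Nup50, a component of the nuclear pore, had -0.40, and their second probe sets gave 0.0067 and 0.12. Of the same 43 fits, 5 called Gtf2i, 4 Yipf4, 4 Smdt1 and 2 Rnf14. For Gtf2i the adjusted p was 0.0476 after median centring, 0.0318 without nicotine neocortex array 6, 0.0499 without nicotine hippocampus array 6, and 0.0431 and 0.0363 with the replicate number as a block across treatments and within a region. Yipf4 and Smdt1 were called without either of those arrays and in both block fits.

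**Figure D3:**
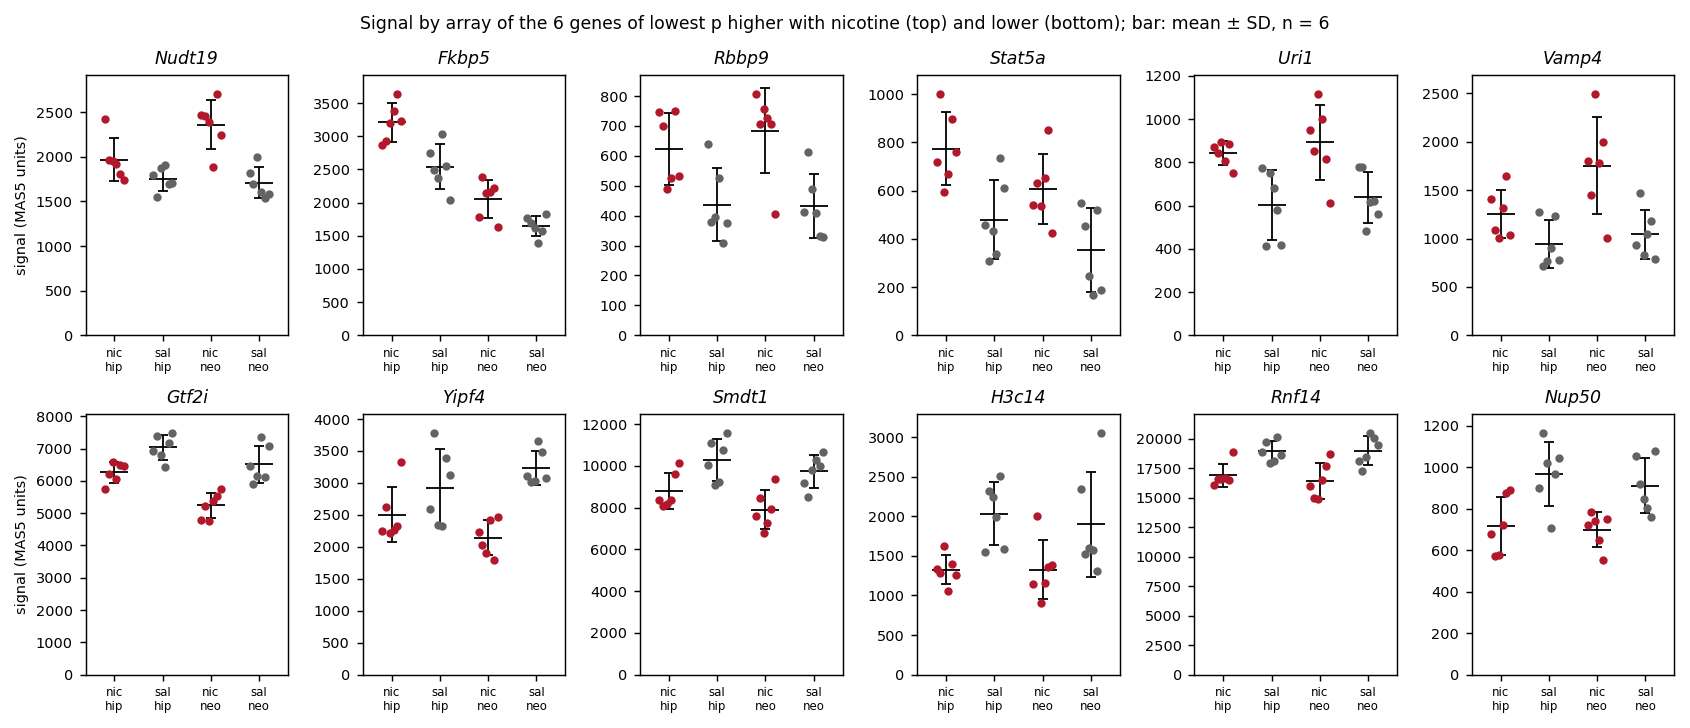
Signal (MAS5 units, linear axis from 0) of the 6 genes of lowest p higher with nicotine (top row) and lower with nicotine (bottom row) in each of 24 arrays; nic is nicotine, sal is saline, hip is hippocampus, neo is neocortex, and bars give the mean ± SD of 6 arrays. The groups overlap in every panel and region except Gtf2i and Yipf4 in the neocortex, and no gene passed the adjusted threshold.

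Within single regions, the same fit called 0 probe sets in the hippocampus (0% called; 611 at an unadjusted p under 0.05, smallest adjusted p = 0.134) and 2 in the neocortex (0.023% called; 829 at an unadjusted p under 0.05). The difference of the effect between the regions had 0 calls (0% called; 349 at an unadjusted p under 0.05, smallest adjusted p = 0.643), so no probe set was shown to respond differently in the 2 regions. Both neocortical calls are named here after their values were seen. Srsf6, a splicing factor of the serine and arginine rich family, rose in the neocortex with signals of 2172, 2385 and 2557 with nicotine, against 1230.0, 1728 and 1829 with saline, and all 6 nicotine arrays lay above all 6 saline arrays (log2 fold change 0.53, limma adjusted p = 0.0473). In the hippocampus Srsf6 had 1848, 2336 and 2655 with nicotine, against 1977, 2265 and 2517 with saline, and the groups overlapped (log2 fold change 0.014; difference between regions, adjusted p = 0.984).

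The other call was a probe set with no gene symbol in the annotation used. It fell in the neocortex with 5916, 6544 and 7132 with nicotine, against 7987, 8752 and 9309 with saline, again without overlap (log2 fold change -0.40, limma adjusted p = 0.00895). In the hippocampus its signals were 7955, 8321 and 8816 with nicotine, against 8118, 8564 and 10278 with saline, and its average log2 fold change was -0.24 (95% interval -0.34 to -0.15; adjusted p = 0.102). The 2 calls depended on single arrays and settings, Srsf6 more than the unnamed probe set. Of 41 fits of the neocortical effect, 18 called Srsf6 and 37 called the unnamed probe set. Without nicotine neocortex array 4 there were 2 calls, with Nudt19 (limma adjusted p = 0.0244) in place of Srsf6. With the kainate arrays in the fit, or without an intensity trend, there were 0 calls. Leaving out 1 array at a time gave 20 without nicotine neocortex array 6, 0 without nicotine neocortex array 3, and 1, lower with nicotine, without nicotine neocortex arrays 1, 2 or 5, saline neocortex arrays 2, 3, 5 or 6, nicotine hippocampus arrays 2, 4 or 5, or saline hippocampus arrays 1, 4, 5 or 6.

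All 6 nicotine arrays lay beyond all 6 saline arrays for 14 probe sets in the hippocampus (0.161%; 7 above and 7 below) and for 47 in the neocortex (0.541%; 26 above and 21 below). For 0 probe sets did this hold in both regions in the same direction. Full separation of 6 from 6 arrays has an exact permutation p of 0.00216, as for the hippocampal array medians above. The hippocampal share was below that level and the neocortical share above it. Probe sets of the same arrays are correlated and the spread of such a share was not estimated, so neither share is read against chance. Epha4, a receptor of ephrins in axon guidance, was one of the 14 hippocampal probe sets, through a dim one. Its signals there were 151, 221 and 291 with nicotine, against 29.8, 48.0 and 75.4 with saline. In the neocortex Epha4 had 45.8, 188 and 337 with nicotine, against 124, 214 and 315 with saline, and the difference of the log2 fold changes between regions was 2.35 (adjusted p = 0.643). The other and brighter Epha4 probe set had log2 fold changes of 0.22 in the hippocampus and 0.19 in the neocortex. Serpinh1, a chaperone of collagen, and Sphk2, a sphingosine kinase, had log2 fold changes of 0.52 and 0.52 in the neocortex, with all 6 nicotine arrays above all 6 saline arrays, and of -0.20 and -0.20 in the hippocampus. The difference between regions for these was short of the threshold (adjusted p = 0.984 and 0.984), as it was for Eif3e, a translation initiation subunit (-2.55), and Itgax, an integrin of myeloid cells (1.34). Other, brighter probe sets had different averages over both regions: Sphk2 had -0.12 from the brighter one and 0.16 from the one above, and Eif3e had 0.17 and 0.52.

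Among the receptors that nicotine acts on, 8 of the 16 nicotinic subunit genes of the list have a probe set with their symbol alone, and 5 passed the filter on low signal: Chrna6, Chrna7, Chrnd, Chrne and Chrng. The other 3 (Chrna1, Chrnb1 and Chrnb2) did not pass it, and the remaining 8, Chrna4 among them, are not analysed here. Of the 5, 0 were at an unadjusted p under 0.05 in either direction. Chrna7, which forms the homomeric receptor abundant on hippocampal interneurons, had 626, 841 and 1088 in the nicotine hippocampus, against 136, 821 and 1140.0 in the saline hippocampus. In the neocortex it had 432, 620.2 and 697 with nicotine, against 220.0, 696 and 971 with saline. The nicotine range lay inside the saline range in both regions, and the average log2 fold change was 0.24 with a 95% interval of -0.31 to 0.79. Chrna6, a subunit of catecholamine neurons, had 0.22 (-0.33 to 0.78), and the muscle-type subunits Chrnd, Chrne and Chrng had 0.36, -0.047 and 0.30. The probe sets are dim and the intervals wide, as for Chrnd (-0.42 to 1.14), so a change of the size estimated here was not detectable for these subunits. The median of the 5 was 0.24, and it was 0.57 within the 1 cluster of arrays with like hybridisation controls that could be fitted alone, 0.097 with the lowest 50% of probe sets left out and 0.12 without saline neocortex array 3.

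Of 7 tested genes for the synthesis, transport, breakdown and reception of acetylcholine, 0 were higher at an unadjusted p under 0.05. In the lower direction there were 2 (28.6%, against 6.93% of all tested genes). These were Ly6h and Ly6e, membrane-anchored proteins of the Ly6 family, members of which bind nicotinic receptors. Ly6h had 8148, 9589 and 13526 in the nicotine hippocampus, against 9383, 11825 and 15691 in the saline hippocampus, and 6339.8, 7349.9 and 9212 in the nicotine neocortex, against 7648, 9588 and 12880.4 in the saline neocortex. The groups overlapped in both regions, and the average log2 fold change was -0.31 (95% interval -0.51 to -0.10, adjusted p = 0.215), against -0.16 for Ly6e. A second Ly6e probe set gave -0.015. Ache, which breaks acetylcholine down, had 0.015 (95% interval -0.18 to 0.21) and Chrm1, the main muscarinic receptor of forebrain neurons, had 0.050 (-0.18 to 0.28). Of 15 dopamine, noradrenaline and serotonin genes, Maoa, which degrades monoamines, alone was at an unadjusted p under 0.05 (-0.23).

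The gene lists together held 678 tested genes, with 1 probe set per gene, the brightest. For all 6421 tested genes on that basis the median log2 fold change was 0.013, with 367 genes at an unadjusted p under 0.05 in the higher direction (5.72%) and 445 in the lower one (6.93%). These counts are given with no test of a list.

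**Figure D4:**
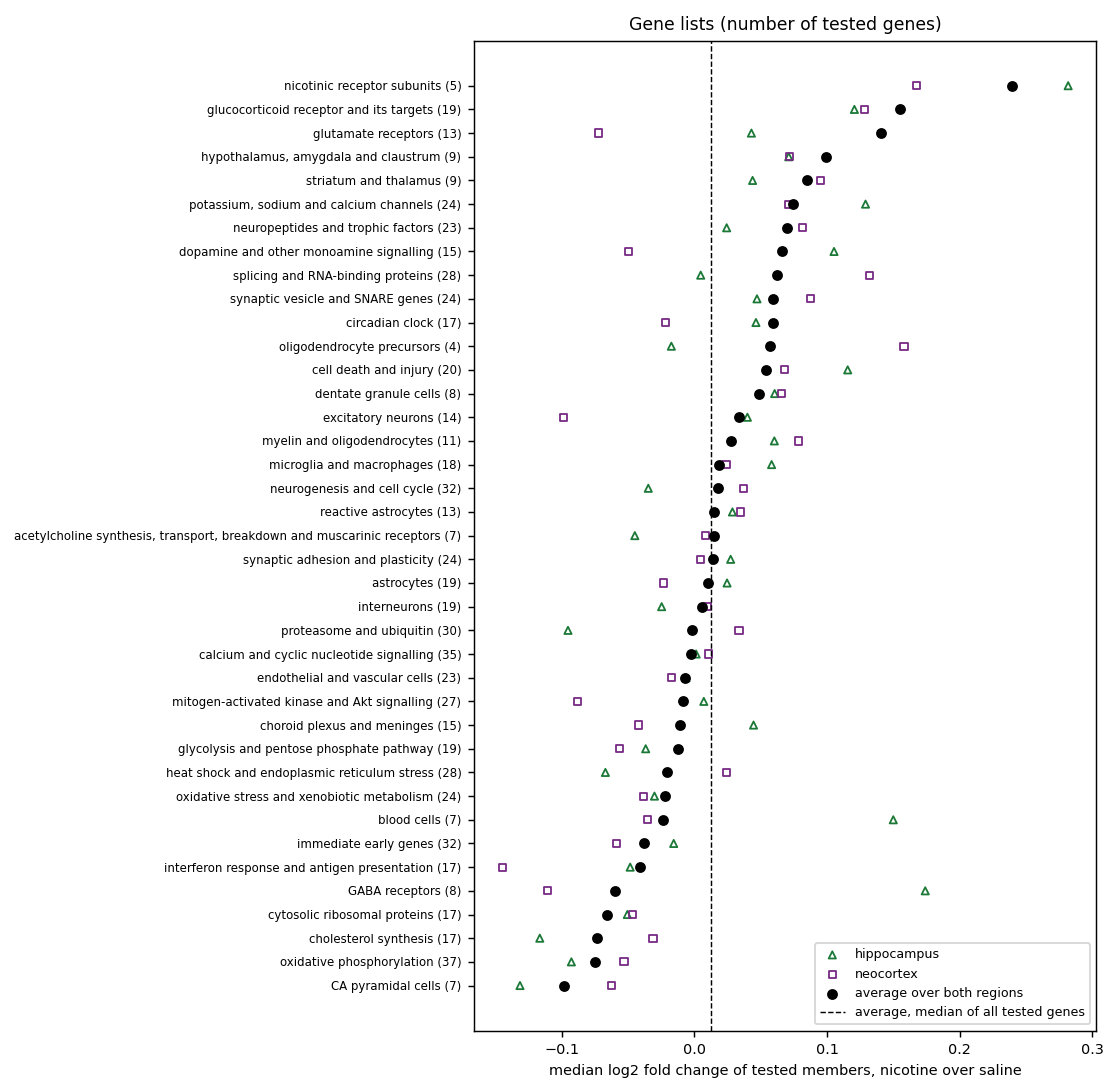
Median log2 fold change, nicotine over saline, of the tested members of 39 gene lists, with the average over both regions (filled circles), the hippocampus (triangles) and the neocortex (squares); the dashed line is the median of all 6421 tested genes. The nicotinic subunits and the glucocorticoid targets have the highest medians (0.24 and 0.15), and the CA pyramidal and respiratory chain genes the lowest (-0.098 and -0.075).

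Of 19 tested genes for the glucocorticoid receptor and its targets, 7 were at an unadjusted p under 0.05 in the higher direction (36.8%, against 5.72% of all tested genes) and 0 in the lower one. Besides Fkbp5 these were Hif3a, Klf9, Mt2, Sgk1, Cebpd and Zbtb16. None passed the adjusted threshold. The median of the 19 was 0.15, with 17 estimates above 0, and it was 0.11 after median centring (5 genes higher) and 0.21 after quantile normalization (7 genes higher). With the lowest 50% of probe sets left out, which removed dim members, it was 0.069.

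Hif3a, a hypoxia-inducible factor subunit that glucocorticoids induce, had 216, 424 and 483 in the nicotine hippocampus, against 100.2, 212 and 401 in the saline hippocampus. In the neocortex it had 309, 426 and 545 with nicotine, against 158, 311 and 449 with saline. The groups overlapped in both regions, and the average log2 fold change was 0.66 (95% interval 0.26 to 1.05, adjusted p = 0.187). Klf9, a transcription factor that glucocorticoid and thyroid hormones induce, had 4589.7, 5011 and 5542 in the nicotine hippocampus, against 3824, 4219 and 5324 in the saline hippocampus, and an average of 0.19 (95% interval 0.070 to 0.31). Its second probe set gave 0.076. Sgk1, a kinase that regulates ion transport, had 0.36 (0.091 to 0.63), Cebpd, a transcription factor of acute responses, had 0.38 (0.077 to 0.69), and Zbtb16, a zinc finger repressor, had 0.22 (0.027 to 0.42). The receptor gene Nr3c1 had 0.37, with an interval that included 0 (-0.090 to 0.83).

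The kainate arrays give a second drug against the same saline arrays. The average log2 fold change of kainate over saline was -0.040 for Fkbp5, -0.005 for Hif3a, -0.027 for Klf9 and -0.066 for Sgk1, and the median of the 19 genes was -0.048. Kainate values of Mt2, Cebpd and Zbtb16 are not given here. The summed signal of the 19 genes, in which bright members weigh most, also rose with kainate in the hippocampus. Its group medians there were 82390.5 with kainate, 75495 with nicotine and 69103 with saline. In the neocortex they were 58835 with kainate, 63457 with nicotine and 59061 with saline. Nicotine and kainate arrays can be compared with no saline array: nicotine minus kainate had 152 calls of 8695 (1.75% called; 18 higher with nicotine and 134 lower). Kainate over saline, which shares its saline arrays with the nicotine comparison, had 211 (2.43% called). Fkbp5 was among the 18 probe sets higher with nicotine than with kainate, with a log2 fold change of nicotine over kainate of 0.36 (limma adjusted p = 0.00212). For the other 18 genes of the list there was 1 call, a lower one, Mt1, a metallothionein, at -0.23 (adjusted p = 0.00659; kainate over saline 0.24, nicotine over saline 0.0026), and the list median of nicotine over kainate was 0.21.

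Genes of oxidative phosphorylation, the respiratory chain and ATP synthase of mitochondria, had 0 higher and 11 lower at an unadjusted p under 0.05 among 37 tested (29.7%, against 6.93% of all tested genes). Their median was -0.075, and it was -0.12 after median centring (12 genes lower) and -0.050 after quantile normalization (7 genes lower). Ndufv1, a subunit of complex I that binds NADH, had 12754, 12883 and 16266 in the nicotine hippocampus, against 13951, 15606 and 16636 in the saline hippocampus. Neocortical signals were 10453, 11901 and 14134 with nicotine, against 12602, 13952 and 17205 with saline. The groups overlapped in both regions, and the average log2 fold change was -0.22 (95% interval -0.34 to -0.10, adjusted p = 0.168).

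Uqcrh, the hinge protein of complex III, had 7061, 7328 and 7787 in the nicotine hippocampus, against 8017, 8247 and 9351 in the saline hippocampus, with no overlap. Its neocortical signals were 6383, 7076 and 7479 with nicotine, against 7044, 7789 and 8005 with saline, which overlapped, and the average was -0.15 (-0.23 to -0.060). Atp5c1, the gamma subunit of ATP synthase, had -0.19 from its brighter probe set and 0.19 from its other one, so its direction is unsettled. Other members, named after their values were seen, lay nearer 0: Cox4i1 of complex IV had 0.078, Sdha of complex II had -0.053 and the ATP synthase subunit Atp5a1 had 0.0031. Against the same saline arrays kainate gave -0.24 for Ndufv1, -0.14 for Uqcrh and a list median of -0.11. Nicotine minus kainate had 0 calls among the 37 genes, which is near the 1.75% called among all tested probe sets.

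**Figure D5:**
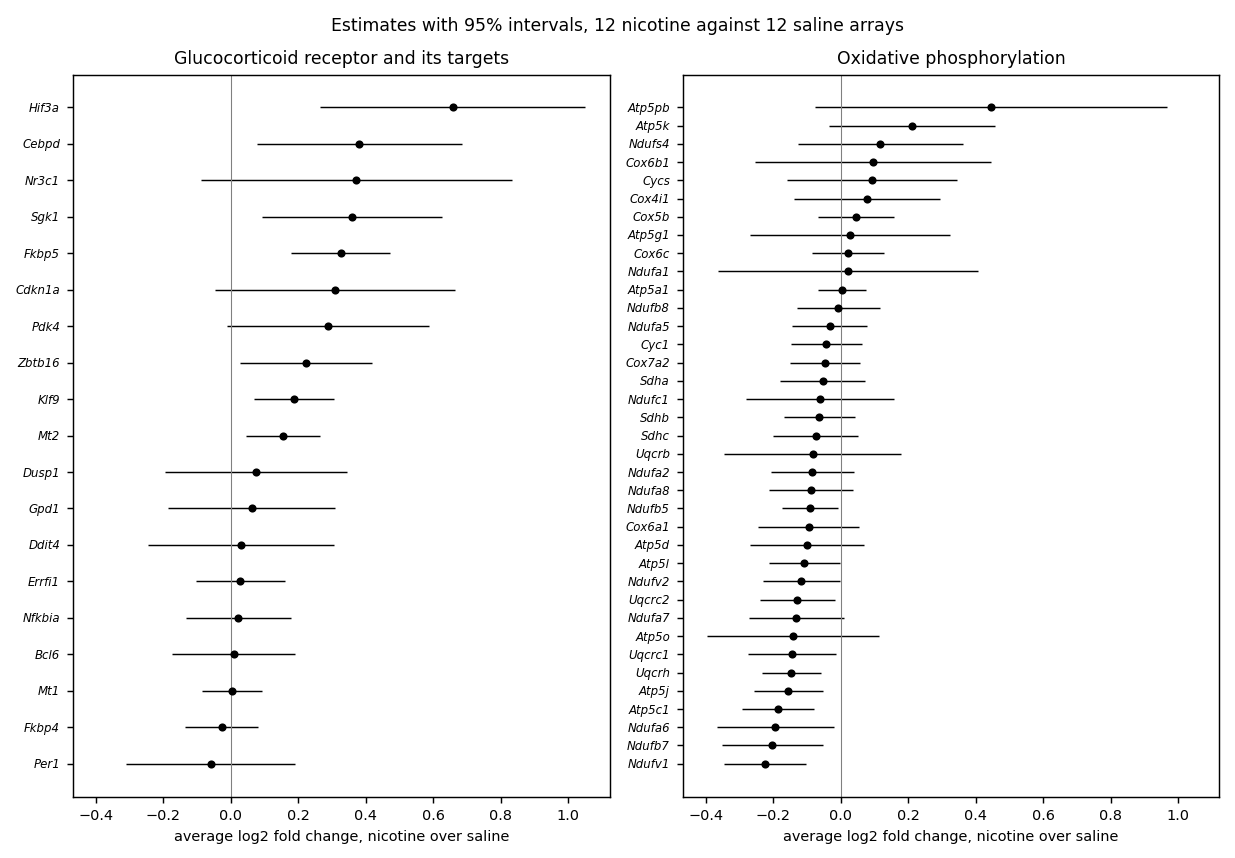
Average log2 fold change, nicotine over saline, with its 95% interval, for each tested gene of the glucocorticoid receptor list (left, 19 genes) and the oxidative phosphorylation list (right, 37 genes), from 12 nicotine and 12 saline arrays of 6 mice each. The intervals of 7 genes on the left lie above 0 and those of 11 genes on the right lie below 0.

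Cytosolic ribosomal protein genes had 0 higher and 7 lower at an unadjusted p under 0.05 among 17 tested. The lower share was 41.2%, against 6.93% of all tested genes, and the median was -0.066. After quantile normalization that count was 2 higher and 3 lower and the median -0.012, so the list depends on the scaling. Rplp0, of the ribosomal stalk, had -0.14, Rps7 had -0.15 and Rps3 had -0.15. Ribosomal protein genes have many processed pseudogenes, and their probe sets may report those too.

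Of 32 tested immediate early genes, the first genes that neurons switch on after activity, 0 were higher and 3 lower at an unadjusted p under 0.05. The lower share was 9.38%, near the 6.93% of all tested genes. The transcription factor Egr1 had 2553, 3298 and 4596 in the nicotine hippocampus, against 3674, 4333 and 4739 in the saline hippocampus. In the neocortex Egr1 had 6289, 8313 and 10031 with nicotine, against 7854, 9413 and 10799 with saline. The groups overlapped in both regions, and the average log2 fold change was -0.28 (95% interval -0.45 to -0.10, adjusted p = 0.204). Gadd45b, a stress-induced regulator of DNA demethylation, had -0.40 (-0.69 to -0.11), and its second probe set gave -0.12. The list median was -0.038, and it was -0.081 after median centring, -0.052 after quantile normalization and 0.038 within the hybridisation control cluster.

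Nr4a1, an orphan nuclear receptor, Fos, a subunit of the AP-1 transcription factor, and Sst, the interneuron peptide somatostatin, are textbook targets of the cyclic AMP response element and its factor CREB, which calcium entry activates. Their promoters are shown as those of known targets. Nr4a1 and Sst were at an unadjusted p under 0.05, and Fos is a widely used marker of recent activity. Egr1 and Gadd45b were also at that level, with lower p than Nr4a1, and their windows are not shown. Each sequence is the RefSeq window of GRCm38.p6 from 250 bases before the gene's start to 50 bases after it, on the gene's strand, with the element's motif TGACG, or CGTCA where it lies on the other strand, in capitals. The Sst window is chr16:23890795-23891094 on the minus strand, the Nr4a1 window is chr15:101266596-101266895 on the plus strand and the Fos window is chr12:85473640-85473939 on the plus strand.
Sst: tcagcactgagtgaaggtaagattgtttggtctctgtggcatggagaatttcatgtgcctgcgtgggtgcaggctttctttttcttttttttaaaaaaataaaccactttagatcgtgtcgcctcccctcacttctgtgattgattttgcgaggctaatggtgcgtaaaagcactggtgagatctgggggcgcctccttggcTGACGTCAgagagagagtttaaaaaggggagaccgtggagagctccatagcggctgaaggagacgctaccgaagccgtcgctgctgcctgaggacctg
Nr4a1: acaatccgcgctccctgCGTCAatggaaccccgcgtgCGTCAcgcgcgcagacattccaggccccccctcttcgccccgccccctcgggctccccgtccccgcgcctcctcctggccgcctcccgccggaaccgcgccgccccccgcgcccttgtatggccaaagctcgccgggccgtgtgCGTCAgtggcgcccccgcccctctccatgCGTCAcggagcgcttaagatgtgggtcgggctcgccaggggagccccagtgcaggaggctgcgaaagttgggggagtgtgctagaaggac
Fos: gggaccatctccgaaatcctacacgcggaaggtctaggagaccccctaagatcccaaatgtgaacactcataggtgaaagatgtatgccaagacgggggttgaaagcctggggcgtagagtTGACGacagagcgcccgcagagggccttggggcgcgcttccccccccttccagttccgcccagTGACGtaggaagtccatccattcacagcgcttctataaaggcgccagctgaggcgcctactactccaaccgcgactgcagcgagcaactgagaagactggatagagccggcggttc
The Sst window holds the full palindrome TGACGTCA, in which both motifs overlap, the Nr4a1 window holds 4 copies of CGTCA and the Fos window 2 copies of TGACG. Of 32851 windows of the same length, 20.8% hold at least 1 copy of the motif on either strand, 5.01% hold 2 or more and 1.79% hold the palindrome. A match describes the letters of the window and not binding there. Because these genes were picked as known targets, the matches say nothing about genes lower with nicotine.

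Nr4a1 had 793, 1096 and 1569 in the nicotine hippocampus, against 1123, 1541 and 2094 in the saline hippocampus. In the neocortex it had 1948, 2441 and 3233 with nicotine, against 2213, 3165 and 4046 with saline. In each region 3 of 6 nicotine arrays lay below every saline array, and the average log2 fold change was -0.36 (95% interval -0.63 to -0.084, adjusted p = 0.253). Fos had 363, 583 and 1162 in the nicotine hippocampus, against 459.9, 837 and 1220.4 in the saline hippocampus, and an average of -0.35 with an interval that included 0 (-0.77 to 0.062).

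Sst had 8563, 8820.1 and 10879 in the nicotine hippocampus, against 9321, 10549 and 12107 in the saline hippocampus. Its signals in the neocortex were 7768, 8847 and 10653 with nicotine, against 9251, 10954 and 12067 with saline. Below every saline array of their region lay 5 hippocampal and 4 neocortical nicotine arrays, and the average log2 fold change was -0.24 (95% interval -0.37 to -0.11, adjusted p = 0.168). Against the same saline arrays kainate gave -0.56 for Sst (adjusted p = 1.34e-05) and -0.70 for Nr4a1 (adjusted p = 0.00168). Nicotine over kainate was 0.31 for Sst (limma adjusted p = 0.0270), so Sst was higher after nicotine than after kainate.

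The intervals of Npy, Bdnf and Penk included 0. Npy, neuropeptide Y of interneurons, had 2258, 2488 and 2812 in the nicotine hippocampus, against 2135, 2579 and 2884 in the saline hippocampus, and an average log2 fold change of -0.011 with an interval of -0.13 to 0.11. Bdnf, the neurotrophin induced by activity, had 0.13 (-0.092 to 0.36) and Penk, the precursor of enkephalins, had 0.072 (-0.22 to 0.37). A second Penk probe set gave -0.069. Of the 23 tested genes of this list 0 were higher and 2 lower at an unadjusted p under 0.05. The lower share was 8.70%, near the 6.93% of all tested genes. These 2 were Sst and the growth factor Igf2 (-0.23), and 4 were lower after median centring. Igf2 is also a marker of the choroid plexus and meninges, a list with 1 higher and 2 lower at that level among 15 tested, and a median of -0.011. The summed signal of those 15 genes was 30733, 36909 and 52927 in the nicotine hippocampus, against 32963, 47143 and 58563 in the saline hippocampus. It was 34829, 39257 and 47969 in the nicotine neocortex, against 40162, 42925 and 55977 in the saline neocortex. The medians were lower with nicotine in both regions and the groups overlapped. Ttr, the transport protein that defines choroid plexus, had -0.15 (adjusted p = 0.946), and the part of this tissue in the Igf2 value was not tested. In bulk tissue, fewer cells of a type and less RNA per cell cannot be told apart, and of 19 tested interneuron markers Sst alone was at an unadjusted p under 0.05, with a list median of 0.0058 that was -0.037 after median centring (2 lower).

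Ion channel genes had 5 higher and 0 lower at an unadjusted p under 0.05 among 24 tested (20.8%, against 5.72% of all tested genes), with a median of 0.074 that was 0.032 after median centring, where 3 were higher, and 0.021 with the lowest 50% of probe sets left out. All 5 encode voltage-gated potassium channels: Kcnc1, Kcnd2, Kcnh2, Kcna4 and Kcna2. Kcnc1, the fast delayed rectifier of fast-spiking interneurons, had 264, 329 and 589 in the nicotine hippocampus, against 52.0, 186 and 315 in the saline hippocampus. Kcnc1 had 268, 302 and 383 in the nicotine neocortex, against 77.3, 242 and 340.1 in the saline neocortex, the groups overlapped in both regions, and the average log2 fold change was 0.84 (95% interval 0.34 to 1.35, adjusted p = 0.187). Kcnd2, which carries the transient A-type current of dendrites, had 0.42 from its brighter probe set (0.13 to 0.71) and 0.41 from the other. Kcnh2 had 0.29, Kcna4 had 0.42 and Kcna2 had 0.25.

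Of 24 genes of synaptic vesicles and SNARE complexes, 1 was higher and 3 lower at an unadjusted p under 0.05 (4.17% and 12.5%). Among all tested genes 5.72% were higher and 6.93% lower at that level. Syt1, the calcium sensor of fast release, had 9165, 12771 and 13916 in the nicotine neocortex, against 6329.9, 9963 and 12401 in the saline neocortex, with an average log2 fold change of 0.37 (95% interval 0.12 to 0.62). The lower ones included Syt11, a synaptotagmin that does not bind calcium (-0.24), and Syt5 (-0.16), whose 6 nicotine neocortex arrays all lay below the 6 saline neocortex arrays. Of 13 glutamate receptor genes 2 were higher (15.4%), the AMPA receptor subunit Gria1 (0.14) and the kainate receptor subunit Grik2 (0.19; 0.49 in the hippocampus and -0.10 in the neocortex). After median centring that count was 0 higher and 1 lower. Second probe sets gave averages of 0.10 for Gria1 and 0.045 for Grik2. The list median of the average effect was 0.14, but the median was 0.043 in the hippocampus and -0.072 in the neocortex. For the average effect it was 0.0076 with the lowest 50% of probe sets left out. Without saline hippocampus array 6, saline hippocampus array 3 or saline neocortex array 4 it was 0.032, 0.061 and 0.076. Of 8 GABA receptor genes 1 was lower (12.5%), Gabbr1 (-0.13).

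Markers of glia and blood were measured for the tissue as a whole. Gfap, the intermediate filament that astrocytes raise on injury, had 3368, 4163 and 4713 in the nicotine hippocampus, against 3345, 3818 and 4273 in the saline hippocampus, and 1490.0, 1724 and 1829 in the nicotine neocortex, against 1332, 1669.5 and 2083 in the saline neocortex. The groups overlapped, and the average log2 fold change was 0.069 with an interval of -0.075 to 0.21. A second Gfap probe set gave 0.14. Kainate over the same saline arrays gave 1.65 for Gfap (limma adjusted p = 4.01e-16), and nicotine over kainate gave -1.58 (adjusted p = 1.55e-15). Of 13 tested reactive astrocyte genes 0 were at an unadjusted p under 0.05 with nicotine over saline in either direction. After adjustment 4 of the 13 were lower in nicotine than in kainate arrays, against 134 of all 8695 tested probe sets.

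Of 18 tested genes of microglia and macrophages 2 were higher at an unadjusted p under 0.05 (11.1%, against 5.72% of all tested genes). These were Ly86, a partner of a Toll-like receptor relative (0.40), and Cx3cr1, the fractalkine receptor of microglia (0.27). The median of the 18 was 0.019 and turned to -0.024 after median centring. Their summed signal was 23057, 23339 and 24851 in the nicotine hippocampus, against 22212, 23176 and 24758 in the saline hippocampus, and the groups overlapped. Between the drugs, 11 of these 18 genes were lower in nicotine than in kainate arrays (limma adjusted p under 0.05) and 0 higher. Among all 8695 tested probe sets 134 were lower and 18 higher. Of 7 tested blood cell genes the hemoglobin gene Hbb-b2 was at an unadjusted p under 0.05 (0.41, 95% interval 0.15 to 0.66), and Hba-a1 had 0.031. The part of residual blood in the results was not tested.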

How the data were processed

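RNA of 34 mouse samples was measured on Affymetrix oligonucleotide arrays from 12 µg of TRIzol-extracted RNA (labels' protocols). The authors deposited linear signal intensities, and the submitters' processing notes name MAS5 without a version. Precision is limited by how many arrays there are. The 66 control probe sets and those below the 30th percentile of mean level (a signal of 128) were left out, which left 8695. Fold changes are on log2(signal + 16), which understates changes of dim genes. limma 3.58.1 in R 4.3.3 (lmFit, eBayes with an intensity trend) fitted 1 mean for each of the 4 groups of region and treatment. The average effect is the mean of both region effects, and adjusted p-values are Benjamini-Hochberg over all tested probe sets, called under 0.05. Array measures were compared by exact permutation over 924 regroupings.

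Of 12422 probe sets without controls, the platform annotation gave 10833 a single gene symbol, 396 more than 1 and 1193 none; only the first kind were named. Named genes were the 6 of lowest p in each direction, up to 6 of lowest p for the region difference and calls in 1 region. To these were added all tested nicotinic subunits, 7 fixed genes (Ache, Chrm1, Fos, Bdnf, Npy, Penk and Gfap), and up to 3 of lowest p from gene lists. Arc was also fixed but had no tested probe set with its symbol alone. Others of a list appear with its count. The members, the 39 lists (1117 members, 718 tested) and the rules were chosen with earlier results of these data known. By the rule used, correlations of same-numbered deviations, replicate numbers did not pair arrays. These ran from -0.066 to 0.28 between treatments in the hippocampus and from 0.0092 to 0.28 in the neocortex, with 2 of 6 over 0.1 in each. Same-numbered arrays of both treatments did share a hybridisation control cluster, except number 1 in the neocortex and number 2 in the hippocampus. The neocortex arrays numbered 6 had the highest mean log2 control signal of their groups, 14.1 with saline and 13.9 with nicotine. The labels do not say what the numbers stand for. Both regions were taken from the same 6 mice per treatment (5 with kainate), but the fit treats arrays as independent because the labels do not match regions to mice; same-numbered arrays of the 2 regions correlated at -0.012 to 0.11 with nicotine and -0.13 to 0.14 with saline. Scripts were tested on simulated data. Promoter windows are from RefSeq (GRCm38.p6); no genome was used. Alternatives covered the pseudocount, filter, scaling, model, replicate blocks, clusters of arrays by hybridisation control probe sets, and leaving out each array. Python 3.11.15 and matplotlib 3.10.9 drew the figures.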

Additional observations from a re-analysis of the deposited data

Results flagged for a closer look

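Of 276 groups of 6 array values (68 named probe sets and the array median, in 4 groups each), 18 (6.52%) held 1 array far from the other 5 by Dixon's criterion, which chance alone gives in about 1 in 20 groups. The difference of the effect between regions was not past the threshold for any of 68 named probe sets, and 0 control probe sets had every nicotine array above every saline array of a region.

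Nicotine hippocampus array 6 was the highest of its group for 4 genes: Rnf14 (18870.5, others 16078 to 16697), Sst (10879, others 8563 to 9149), Ndufv1 (16266, others 12754 to 13335) and Gabbr1 (15922, others 12037 to 12990.4). Each of these genes was lower with nicotine on average. Nicotine neocortex array 6 was the lowest of its group for Rbbp9 (404, others 705 to 807), Bdnf (1697, others 2747 to 2918) and Atp5c1 (6364, others 7477 to 8199).

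Saline hippocampus array 2 was lowest for Chrna7 (136, others 793 to 1140.0) and highest for Uqcrh (9351, others 8017 to 8403) and Crym (4866, others 2891 to 3430). The remaining cases lay in single arrays. Nicotine hippocampus array 4 was lowest for Hif3a (216, others 373 to 483) and Gadd45b (407, others 495 to 554). Nicotine hippocampus array 3 was highest for Ly86 (863, others 509 to 617). Nicotine neocortex array 5 was lowest for Chrna6 (44.6, others 225 to 377), and saline neocortex array 3 was lowest for the same gene (56.2, others 195 to 380). Nicotine neocortex array 4 was lowest for Klf9 (5290, others 6303 to 6727). For Syt5, nicotine neocortex array 3 was lowest (3902, others 4363 to 4588) and saline neocortex array 4 was highest (5888, others 4785 to 5136).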

How the results depend on the processing

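The average effect had 0 calls in the reported fit. It had 2 after median centring (both lower), 1 with array weights (lower), 12 with the replicate number across treatments as a replicate block (4 higher, 8 lower) and 42 with the number within a region as a replicate block, a fit added after seeing the data (16 higher, 26 lower). Leaving out 1 array at a time gave 0 to 13. The numbers share no stated litter or mouse, and 2 or 3 of 6 arrays correlated best with their own number. Same-numbered arrays of the 2 treatments mostly shared a hybridisation control cluster, so the numbers follow an array measure in part. What this does to the calls was not tested, and the block counts are given as values. The region difference had 0 calls in all its fits. The hippocampal effect (0) had 1 with the number across treatments as a replicate block, and 0 to 1 with 1 array left out. The neocortical effect (2) had 1 with no filter, after median centring, after quantile normalization and without both neocortex arrays numbered 6; 0 with all 34 arrays, without the intensity trend and within hybridisation control cluster 2; 4 with those clusters as a block; 7 with the number within a region as a block; 11 with array weights; and 0 to 20 with 1 array left out. The cause of these moves was not tested. Nicotine minus kainate had 121 to 198 calls against 152.

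By the trimmed mean, which the authors' scaling fixes, nicotine minus saline was 0.0763 in the hippocampus and -0.0915 in the neocortex. Among named genes, within cluster 2 the average turned to -0.0092 for Chrm1, -0.0067 for Cx3cr1 and 0.27 for Chrne, and median centring turned Ache to -0.028. Leaving out 1 array at a time gave averages of both signs for Ache (-0.037 to 0.061), Npy (-0.036 to 0.016), Chrne (-0.13 to 0.052), Penk (-0.0042 to 0.15) and Chrm1 (-0.0032 to 0.099). Among list medians, with the lowest 50% left out the glucocorticoid median was 0.069 and the glutamate receptor median 0.0076. Within cluster 2 the medians were 0.57 for nicotinic subunits, 0.024 for glutamate receptors and 0.057 for cholesterol synthesis. Without both neocortex arrays numbered 6 the glutamate receptor median was 0.031.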

Other observations

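Some gene groups of the comparison of nicotine with saline were not described above, and none of their members passed the adjusted threshold of limma. Their counts stand beside 5.72% higher and 6.93% lower among all tested genes at an unadjusted p under 0.05. Of 17 tested genes of cholesterol synthesis, 0 were higher and 2 lower at an unadjusted p under 0.05 (11.8%): Fdps, which makes farnesyl diphosphate, had a log2 fold change of -0.20 (95% interval -0.32 to -0.085), and Idi1, an isomerase of the same route, had -0.22 (-0.39 to -0.061). Kainate over the same saline arrays gave -0.40 for Fdps and -0.58 for Idi1, and nicotine over kainate gave 0.36 for Idi1 (adjusted p = 0.0146). Among 7 markers of CA pyramidal cells 2 were lower (28.6%): Cpne6, a calcium-dependent membrane-binding protein (-0.15), and Crym, a thyroid hormone binding protein (-0.21). The cholesterol list median was -0.073, and 0.057 within the 1 cluster of arrays with like hybridisation controls that could be fitted alone. A second Fdps probe set gave 0.028.

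Of 17 circadian genes 1 was higher and 1 lower (5.88% each): the core activator Clock had 0.27 (95% interval 0.033 to 0.51), and the output factor Tef had -0.24 (-0.41 to -0.062). Of 24 genes of oxidative stress and xenobiotic metabolism 2 were higher and 3 lower (8.33% and 12.5%), with Gpx1, a glutathione peroxidase, at 0.22, Txn1, thioredoxin, at -0.13, and Gstm5, a glutathione transferase, at -0.18 from its brightest probe set. The other 3 Gstm5 probe sets gave 0.066, 0.26 and 0.096, and glutathione transferases of this class are near-identical copies that probe sets may not separate. Of 30 proteasome and ubiquitin genes 2 were higher and 5 lower (6.67% and 16.7%), and of 35 genes of calcium and cyclic nucleotide signalling 3 were higher and 5 lower (8.57% and 14.3%). After median centring, 0 genes were higher in the circadian, oxidative stress and proteasome lists.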
